A study of Mus musculus with 12 samples.

Results

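Transcript levels of 10 piRNA pathway genes were followed across 12 mouse libraries: Piwil2, Piwil4, Mov10l1, Mael, Pld6, Tdrd1, Tdrd5, Tdrd6, Tdrd7 and Tdrd9. They were taken by symbol from a table of 26219 genes, and all 10 were found. The libraries were made by SC3-seq, in which cDNA is amplified and the 3′ ends of transcripts are read, from 1 ng of total RNA each. They come from 6 cell lines with 2 libraries per line, described in the labels as biological replicates of the culture. GSC_1 and GSC_2 are germline stem cell (GSC) lines, that is, spermatogonial stem cells expanded in vitro, from separate testes at postnatal day 7. The 4 germline stem cell-like cell (GSCLC) lines were established from reconstituted testes kept in culture. For GSCLC_1 and GSCLC_4 these testes were held at 34°C for 3 weeks (condition 1), and for GSCLC_2 and GSCLC_3 they spent 2 weeks at 37°C before 1 week at 34°C (condition 2). All 6 lines share the strain background C57BL/6 x 129/SvJcl, the AcrAct_EGFP reporter and a medium with 1% FBS, GDNF, bFGF, LIF and EGF. The kind of line coincides with the kind of testis it came from, so effects of these cannot be told apart, and the labels do not say which cells of the reconstituted testes founded each line.

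PIWI-interacting RNAs (piRNAs) are small RNAs of the germ line that guide PIWI proteins to transposon transcripts and, in the nucleus, to transposon loci that then gain DNA methylation. Long precursor transcripts are cut and trimmed in granules next to mitochondria, the nuage, where Tudor domain proteins hold PIWI proteins by their methylated arginines. In the mouse testis the pathway is set up in fetal prospermatogonia, in which PIWIL2 and PIWIL4 act, and takes another form in meiotic and haploid cells, and males that lack one of its components are commonly infertile.

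Among these genes Tdrd9 had the clearest difference between the kinds of line. Its promoter, the DNA just before the transcription start, is shown together with that of Mael, a gene that differed between single lines, because both hold the hexamer CACGTG, an E-box that transcription factors such as MAX and MYC can bind. The sequences are from RefSeq, build GRCm38.p6, 5′ to 3′ along the gene's own strand, with CACGTG in capitals. The Tdrd9 sequence covers chr12:111971309-111971487 on the plus strand and that of Mael chr1:166238748-166238994 on the minus strand.
Tdrd9 promoter: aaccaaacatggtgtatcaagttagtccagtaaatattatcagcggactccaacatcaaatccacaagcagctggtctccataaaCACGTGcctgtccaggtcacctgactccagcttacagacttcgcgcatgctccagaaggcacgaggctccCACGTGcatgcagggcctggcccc
Mael promoter: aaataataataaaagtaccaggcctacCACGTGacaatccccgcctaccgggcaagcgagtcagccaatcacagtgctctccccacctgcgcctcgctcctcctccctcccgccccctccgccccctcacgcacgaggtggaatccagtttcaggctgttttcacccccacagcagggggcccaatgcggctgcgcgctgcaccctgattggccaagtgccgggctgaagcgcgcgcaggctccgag
Both end before the earliest start that RefSeq or GENCODE gives the gene, which for Tdrd9 is the RefSeq gene start at 111971488, upstream of the start at 111971559 from which its matches are counted. In the 250 bases before each RefSeq start, CACGTG, which reads the same on both strands, occurred in 6.02% of 32841 promoters and at least 2 times in 0.429%. RefSeq promoters were matched for 8 of the 10 genes, Piwil2 and Tdrd6 being the others. Of these 8 genes, 5 (Tdrd9, Mael, Mov10l1, Pld6 and Tdrd1) had a promoter with a match, against 6.86% of all genes. Counted by promoter it was 6 of 14, and Pld6 and Tdrd1 each also had a promoter without a match. Tdrd9 had 2 matches, at -165 and -95 from the listed start, and Mael had 1, at -223. Of the other piRNA pathway genes described below, Fkbp6 and Piwil1 also had a promoter with 2 matches, and Ddx4, Stk31 and Dnmt3l had one with 1. Asz1, Gtsf1, Tdrkh, Tdrd12 and all the others of that list with a matched promoter had none. Dpep3, Gm15127, Pebp1 and Tex19.1, described below for a pattern like that of Tdrd9, had none either. For Pmaip1, described there as well, no promoter was matched. The 250 bases held 8 CpG dinucleotides in Tdrd9 and 18 in Mael, with a median of 6 over all promoters. In the other promoters with a match they held 19 in Mov10l1, 14 in Pld6, and 11 and 22 in Tdrd1. CACGTG itself contains a CpG, and its share was not compared with that in promoters of like CpG content. A match describes these letters, and binding at them was not measured here.

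Levels are given in RPM, the reads of a gene scaled to one common total per library. With 3′-end reads this unit is not scaled to transcript length, so levels are compared between lines and not between genes. The step between low values put 1 read at 0.215 to 0.33 RPM and the libraries at 3031465 to 4643820 reads, and a count of 3 reads corresponds to 0.646 to 0.99 RPM. Over all genes tested, 2 libraries correlated with Pearson's r of 0.966 to 0.977 within a line and 0.925 to 0.971 between lines, across genes that are not independent replicates. All 9 markers of undifferentiated spermatogonia on a list that includes Gfra1, Ret, Zbtb16 and Etv5 were expressed in both kinds of line, with summed levels of 2427 to 2622 RPM in GSC and 2228 to 2788 RPM in GSCLC libraries, and none of them passed the test between the kinds. The 6 markers of differentiating spermatogonia summed to 227 to 290 RPM in GSC and 225 to 328 RPM in GSCLC libraries, and none passed between the kinds. Single genes of this list differed more, with Sohlh1 at 27.6 to 65.8 RPM in GSC and 1.25 to 51.5 RPM in GSCLC libraries. Sohlh2 tended the other way, at 141 to 174 RPM in GSC and 176 to 234 RPM in GSCLC libraries. Summed markers of meiotic prophase lay at 497 to 632 and 499 to 749 RPM. Of these, Tex101 alone gave 243 to 417 RPM, while Spo11 stayed at 0 to 2.37 RPM. The spermatid markers Prm1, Prm2, Tnp2 and Acrv1 were listed at 0 in all 12 libraries. On the same list Tnp1 reached 4.59 RPM and Odf1 2.15 RPM. The spermatid sum lay at 2.71 to 6.03 RPM in GSC and 0 to 4.85 RPM in GSCLC libraries. A test compared lines with limma on log2(RPM + 1), a scale that understates the change of low genes, for the 11788 genes that reached 5 RPM in 2 or more libraries. Of the 10 piRNA pathway genes 9 were tested, and Tdrd6 was not.

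**Figure D1:**
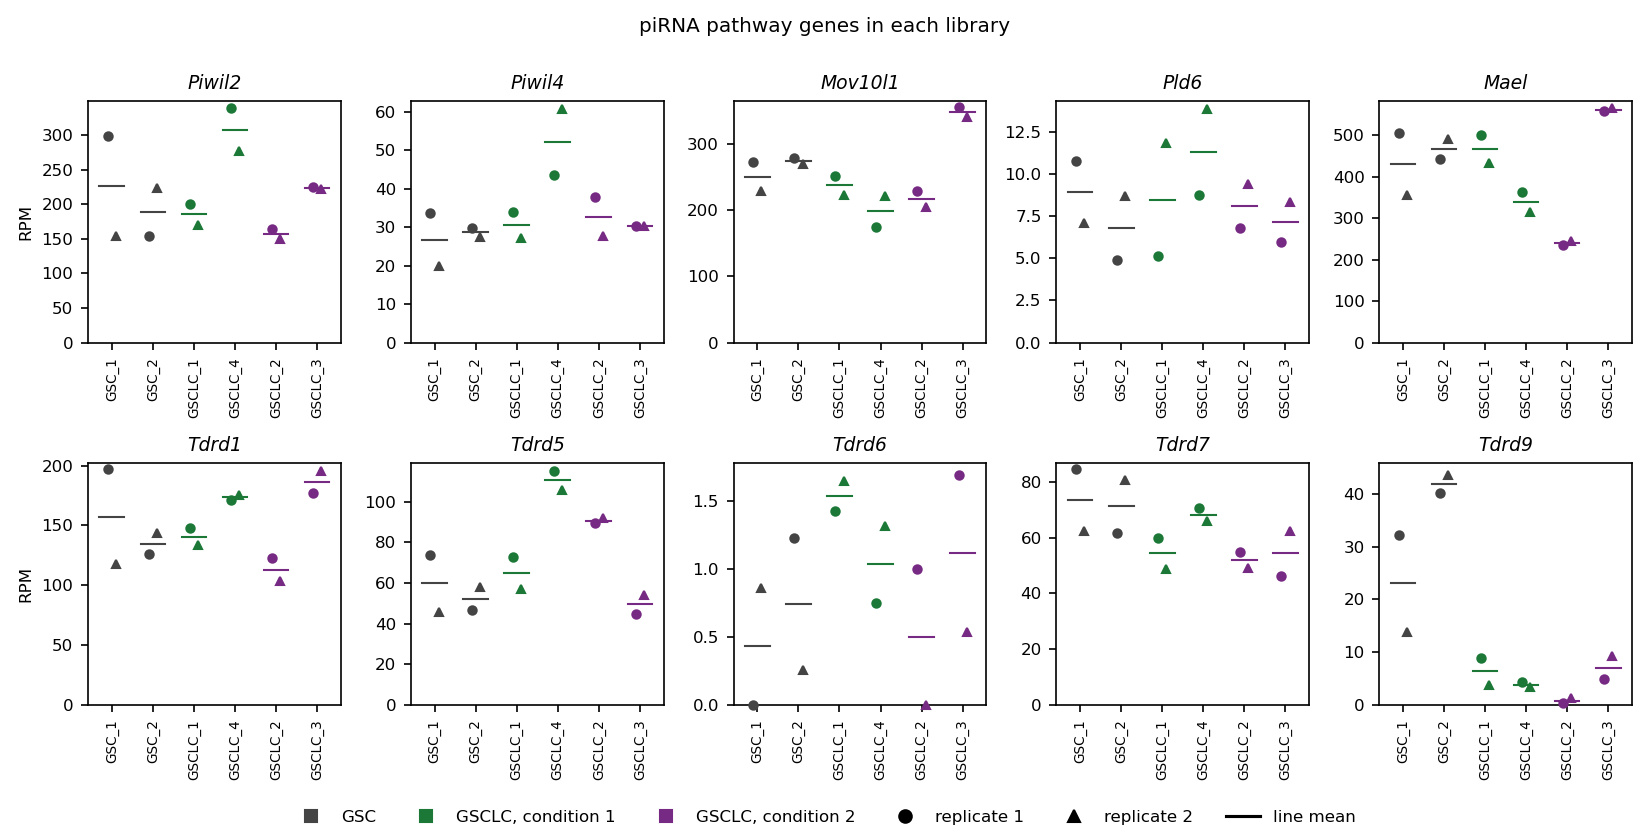
RPM (vertical axes, from 0, a different range in each panel) of the 10 piRNA pathway genes in the 12 libraries, by line. Circles and triangles are the 2 culture replicates and bars the line means. The 4 GSC libraries stand above all 8 GSCLC libraries in the Tdrd9 panel, from 13.8 RPM up, and Tdrd6 does not exceed 1.70 RPM.

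Tdrd9 encodes a Tudor domain RNA helicase that works beside PIWIL4 in transposon silencing. It stood at 32.3 and 13.8 RPM in the 2 libraries of GSC_1 and at 40.1 and 43.6 RPM in those of GSC_2. The GSCLC lines gave 8.84 and 3.78 RPM in GSCLC_1, 4.26 and 3.30 RPM in GSCLC_4, 4.81 and 9.16 RPM in GSCLC_3, and 0.251 and 1.30 RPM in GSCLC_2. Each of the 8 GSCLC libraries was thus below each of the 4 GSC libraries, and GSCLC_2 was the lowest line in both of its libraries. The line means averaged 32.5 ± 13.3 RPM in GSC (SD, n = 2) and 4.46 ± 2.82 RPM in GSCLC lines (SD, n = 4), a 7.27-fold difference in RPM. On the log2 scale Tdrd9 fell by 2.76 ± 0.53 (SE), with a Benjamini-Hochberg adjusted p = 0.0193 in limma over all tested genes. The call rests on both GSC lines. It was lost without GSC_1 (log2 -3.24, adjusted p = 0.103) and without GSC_2 (-2.29, adjusted p = 0.311), where the 1 remaining GSC line is assumed to vary like the others, and also when genes of low level were not filtered out (-2.76, adjusted p = 0.0891), which adds genes to the limma test.

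Tdrd9 rests on few reads in the GSCLC lines. In the pooled libraries of each line it had 163 reads in GSC_1 and 334 in GSC_2, against 47 in GSCLC_1, 51 in GSCLC_3, 27 in GSCLC_4 and 6 in GSCLC_2. With exact 95% Clopper-Pearson intervals, these are 21.1 RPM (18.0 to 24.6) and 41.8 RPM (37.5 to 46.6) in the GSC lines. The GSCLC lines gave 6.08 RPM (4.47 to 8.08), 7.04 RPM (5.24 to 9.25), 3.84 RPM (2.53 to 5.59) and 0.767 RPM (0.282 to 1.67) in the same order. No interval of a GSC line touched one of a GSCLC line, and that of GSCLC_2 was apart from the other 3. The intervals hold counting error alone: reads of amplified cDNA that carry no molecular identifier are not separate molecules.

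The 6 lines were then ordered by their Tdrd9 mean and compared pair by pair with limma on single libraries. The order from the top was GSC_2 at 41.9, GSC_1 at 23.0, GSCLC_3 at 6.99, GSCLC_1 at 6.31, GSCLC_4 at 3.78 and GSCLC_2 at 0.778 RPM. All 8 pairs of a GSC with a GSCLC line passed the threshold. The adjusted p ran from 0.0456 for GSC_1 over GSCLC_1 (1.69 ± 0.45) to 2.62e-06 for GSC_2 over GSCLC_2 (4.66 ± 0.45 on the log2 scale). Neighbours in the order differed only at the step from GSC_1 to GSCLC_3 (1.53 ± 0.45, adjusted p = 0.0413), while GSC_2 over GSC_1 (0.95 ± 0.45, adjusted p = 0.739) and GSCLC_4 over GSCLC_2 (1.49, adjusted p = 0.123) did not pass. Within the GSCLC lines, GSCLC_3 and GSCLC_1 each exceeded GSCLC_2, by 2.18 (adjusted p = 0.00729) and 2.01 (adjusted p = 0.0328). These p-values compare these 6 lines against the spread of their own cultures, not GSC and GSCLC lines in general.

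Markers of somatic testis cells also differed between the libraries. Summed Leydig and peritubular cell markers, 7 genes, lay at 33.4 to 134 RPM in GSC and 13.0 to 51.5 RPM in GSCLC libraries, with Cyp17a1 at 0 throughout and 2 of 7 called lower in GSCLC lines. Cyp11a1 and Hsd3b1 were high in replicate 1 alone, at 36.2 and 34.2 RPM in GSC_1 and 60.1 and 36.7 RPM in GSC_2. In replicate 2 they were at 3.23 and 2.80 RPM in GSC_1 and 2.30 and 3.83 RPM in GSC_2. Insl3 tended the other way, with 0.738 to 1.94 RPM in GSC and 0 to 6.77 RPM in GSCLC libraries. The highest GSCLC sum, in replicate 2 of GSCLC_1, was mostly Acta2 at 44.7 RPM. Sertoli cell markers, also 7 genes, summed to 35.1 to 139 and 18.9 to 48.3 RPM, with Amh at 0 throughout and 1 called lower. Their highest sums were mostly Clu, at 75.3 RPM in replicate 1 of GSC_1 and 130 RPM in replicate 1 of GSC_2. Wt1 tended the other way, with 1.28 to 5.22 RPM in GSC and 2.97 to 29.8 RPM in GSCLC libraries. The 7 fibroblast markers summed to 110 to 365 and 67.9 to 243 RPM with none called. Macrophage and endothelial markers summed to 12.1 to 21.1 and 7.01 to 18.7 RPM. The part of these cells in the piRNA pathway values was not tested. In the 2 libraries of GSC_1 the Leydig and peritubular sum was 92.6 and 36.8 RPM while Tdrd9 was 32.3 and 13.8 RPM. In those of GSC_2 the Leydig and peritubular sum was 134 and 33.4 RPM while Tdrd9 was 40.1 and 43.6 RPM. In bulk RNA, fewer cells with a transcript and less transcript per cell cannot be told apart.

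Of the 9 genes tested, Tdrd9 alone passed between GSCLC and GSC lines. That is 1 lower and 0 higher, with 8 not past the threshold, against 3.02% of all tested genes called in either direction and 1.81% called lower. The line means of log2 values did not overlap for 3 of the 9 genes (Tdrd9 and Tdrd7 lower, Piwil4 higher), against 28.6% of all genes. The median log2 change of the 9 genes was 0.07, and 0.08 without Tdrd9, beside -0.01 over all tested genes.

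**Figure D2:**
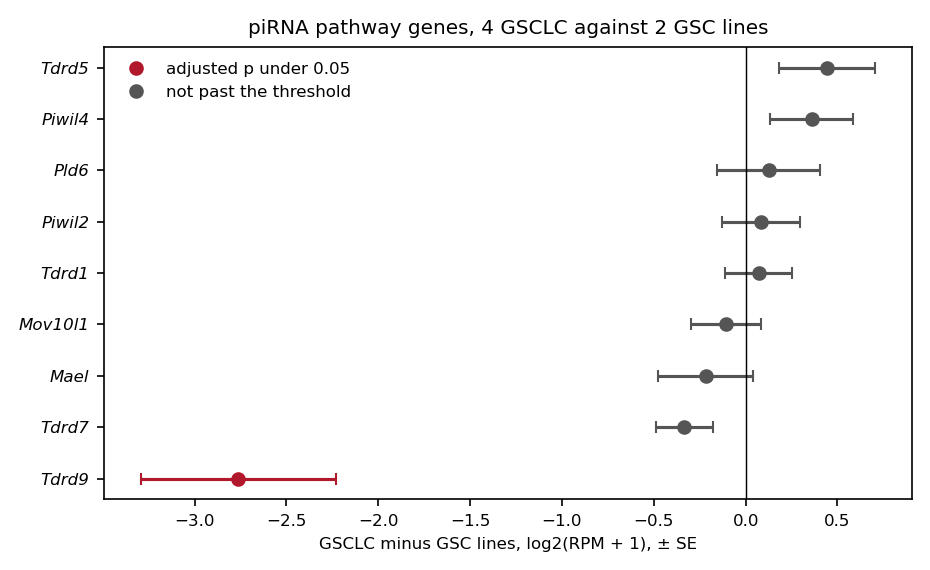
Difference between the 4 GSCLC and the 2 GSC lines for the 9 tested piRNA pathway genes, in log2(RPM + 1), with standard errors from limma. Tdrd9, in red, lies at -2.76, and the other 8, in grey, lie between -0.33 for Tdrd7 and 0.44 for Tdrd5.

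The 2 PIWI genes did not pass between the kinds of line. Piwil2 encodes PIWIL2, also called MILI, which binds piRNAs and cuts transposon transcripts with them. Its libraries were at 298 and 154 RPM in GSC_1, 154 and 224 RPM in GSC_2, 200 and 170 RPM in GSCLC_1, 339 and 277 RPM in GSCLC_4, 164 and 150 RPM in GSCLC_2, and 224 and 222 RPM in GSCLC_3. The GSC replicates alone span most of the range, and GSCLC_4 holds the highest line mean at 308 RPM. The averages were 207 ± 26.0 RPM for GSC and 218 ± 65.5 RPM for GSCLC lines (log2 0.08 ± 0.21, adjusted p = 0.886 in limma). In order, GSCLC_4 was followed by GSC_1 at 226, GSCLC_3 at 223, GSC_2 at 189, GSCLC_1 at 185 and GSCLC_2 at 157 RPM. No neighbours in that order differed, and 1 of 15 pairs passed, GSCLC_4 over GSC_2 (0.72, adjusted p = 0.0438 in limma).

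Piwil4 encodes PIWIL4, also called MIWI2, the nuclear PIWI protein that directs DNA methylation to transposons in fetal germ cells. It had 92 to 184 reads per library, with 33.6 and 19.8 RPM in GSC_1, 29.8 and 27.6 RPM in GSC_2, and 34.0 and 27.2 RPM in GSCLC_1. GSCLC_2 gave 37.9 and 27.7 RPM, GSCLC_3 30.2 RPM in both libraries, and GSCLC_4 43.6 and 60.7 RPM. GSCLC_4 stands above the other lines in both of its libraries, while the libraries of the other 5 lines overlap. The averages were 27.7 ± 1.40 RPM for GSC and 36.4 ± 10.5 RPM for GSCLC lines (log2 0.36 ± 0.23, adjusted p = 0.458 in limma). The order of line means was GSCLC_4 at 52.1, GSCLC_2 at 32.8, GSCLC_1 at 30.6, GSCLC_3 at 30.2, GSC_2 at 28.7 and GSC_1 at 26.7 RPM. GSCLC_4 exceeded both GSC lines, by 0.97 (adjusted p = 0.0211) and 0.82 (adjusted p = 0.0446), and no other pair passed.

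Mov10l1 and Pld6 act in the making of piRNAs. Mov10l1 encodes a germ cell RNA helicase that feeds precursor transcripts into processing. Its libraries lay at 272 and 230 RPM in GSC_1, 279 and 270 RPM in GSC_2, 252 and 224 RPM in GSCLC_1, and 229 and 204 RPM in GSCLC_2. GSCLC_3 gave 356 and 341 RPM and GSCLC_4 175 and 221 RPM. The kinds of line overlapped (263 ± 16.8 against 250 ± 67.5 RPM, log2 -0.11 ± 0.19, adjusted p = 0.827), and GSCLC_3 was above every other line in both libraries. It exceeded GSCLC_4 by 0.82 ± 0.15 (adjusted p = 0.00151), GSCLC_2 by 0.69 (adjusted p = 0.00826) and GSC_1 by 0.48 (adjusted p = 0.0483), and GSC_2 exceeded GSCLC_4 by 0.48 (adjusted p = 0.0401), all in limma. The order of means was 348, 275, 251, 238, 216 and 198 RPM for GSCLC_3, GSC_2, GSC_1, GSCLC_1, GSCLC_2 and GSCLC_4, with no difference between neighbours past the threshold.

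Pld6 encodes a nuclease of the outer mitochondrial membrane that cuts piRNA precursors. It ranged from 4.92 to 13.9 RPM with a median of 8.52 RPM over the 12 libraries, on 18 to 50 reads each, and the 2 libraries of a line differed by as much as 5.14 and 11.8 RPM in GSCLC_1. GSC lines averaged 7.87 ± 1.51 RPM and GSCLC lines 8.75 ± 1.79 RPM (log2 0.13 ± 0.28, adjusted p = 0.863 in limma). None of the 15 pairs of lines passed, with line means from 6.80 RPM in GSC_2 to 11.3 RPM in GSCLC_4.

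Mael encodes Maelstrom, a nuage protein needed for transposon silencing. It had 504 and 355 RPM in GSC_1, 442 and 490 RPM in GSC_2, 501 and 433 RPM in GSCLC_1, and 362 and 316 RPM in GSCLC_4. The 2 lines of condition 2 held its lowest and its highest values, 234 and 244 RPM in GSCLC_2 against 557 and 565 RPM in GSCLC_3. GSC lines averaged 448 ± 25.6 RPM and GSCLC lines 402 ± 142 RPM, a difference within the spread of the GSCLC lines (log2 -0.22 ± 0.26, adjusted p = 0.72 in limma). GSCLC_3 exceeded GSCLC_2 by 1.23 ± 0.15 (adjusted p = 4.58e-05), and GSC_2, GSCLC_1 and GSC_1 exceeded it by 0.96 (adjusted p = 0.00052), 0.96 (adjusted p = 0.00308) and 0.82 (adjusted p = 0.00265). GSCLC_3 also exceeded GSCLC_4, by 0.73 (adjusted p = 0.00471). The line means ran from 561 RPM in GSCLC_3 over 467 in GSCLC_1, 466 in GSC_2, 430 in GSC_1 and 339 in GSCLC_4 to 239 RPM in GSCLC_2, and no neighbours differed past the threshold.

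The remaining 4 genes encode further Tudor domain proteins. Tdrd1, a scaffold that binds PIWIL2 in the nuage, ranged from 104 to 197 RPM over the 12 libraries with a median of 146 RPM. It averaged 146 ± 15.9 RPM for GSC and 153 ± 33.0 RPM for GSCLC lines (log2 0.07 ± 0.18, adjusted p = 0.886 in limma). The line means were 186 RPM in GSCLC_3, 173 in GSCLC_4, 157 in GSC_1, 141 in GSCLC_1, 135 in GSC_2 and 113 RPM in GSCLC_2. As for Mael and Mov10l1, GSCLC_3 was the highest line, and it exceeded GSCLC_2 by 0.72 (adjusted p = 0.0286), the only pair of 15 past the threshold.

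Tdrd5 encodes a nuage protein that is also required for spermatid development. It had 74.0 and 45.9 RPM in GSC_1, 46.5 and 57.9 RPM in GSC_2, 73.0 and 57.0 RPM in GSCLC_1, and 44.9 and 54.2 RPM in GSCLC_3. Higher values came from GSCLC_2, with 89.5 and 92.1 RPM, and GSCLC_4, with 115 and 106 RPM, and the libraries of these 2 lines do not overlap with any other. These 2 lines belong to different conditions. The average of 79.0 ± 27.1 RPM in GSCLC lines against 56.1 ± 5.45 RPM in GSC lines did not pass (log2 0.44 ± 0.26, adjusted p = 0.421 in limma). GSCLC_4 exceeded GSCLC_3 by 1.15 ± 0.21 (adjusted p = 0.00191), GSC_2 by 1.08 (adjusted p = 0.00266) and GSC_1 by 0.91 (adjusted p = 0.00939), and GSCLC_2 exceeded GSCLC_3 by 0.87 (adjusted p = 0.0185) and GSC_2 by 0.79 (adjusted p = 0.0229). The means were 111 RPM in GSCLC_4, 90.8 in GSCLC_2, 65.0 in GSCLC_1, 59.9 in GSC_1, 52.2 in GSC_2 and 49.6 RPM in GSCLC_3, with no difference past the threshold between neighbours.

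Tdrd7 encodes a protein of the chromatoid body, the granule of spermatids. Its libraries gave 84.7 and 62.4 RPM in GSC_1, 61.8 and 80.9 RPM in GSC_2, 59.9 and 48.7 RPM in GSCLC_1, 54.9 and 49.0 RPM in GSCLC_2, 46.4 and 62.5 RPM in GSCLC_3, and 70.6 and 66.0 RPM in GSCLC_4. The line means of the 2 kinds are separate, while single libraries overlap. GSC lines averaged 72.5 ± 1.60 RPM and GSCLC lines 57.3 ± 7.45 RPM (log2 -0.33 ± 0.16, adjusted p = 0.303 in limma). None of its 15 pairs of lines passed, the means running from 73.6 RPM in GSC_1 through 71.3 in GSC_2, 68.3 in GSCLC_4, 54.4 in GSCLC_3 and 54.3 in GSCLC_1 to 52.0 RPM in GSCLC_2.

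Tdrd6 encodes a large Tudor protein of the chromatoid body. It was at 0 to 1.70 RPM, with 0 to 7 reads per library and 41 reads in all. It was at 0 in 1 library of GSC_1 and 1 of GSCLC_2, and 5 of 12 libraries had at most 3 reads. Tdrd6 did not reach the level asked for the test, so differences between lines in it were not tested.

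The culture condition of the reconstituted testes was compared as 2 lines against 2. None of the 9 genes passed, nor did any of the 11788 genes tested (0% called, smallest adjusted p = 0.933 in limma), while 552 of all genes and none of the 9 were below an unadjusted p of 0.05. The smallest unadjusted p among them was 0.125, for Mov10l1, with 218 RPM in condition 1 and 282 RPM in condition 2 (log2 0.34 ± 0.21). Tdrd9 had 5.05 and 3.88 RPM (log2 -0.66 ± 0.62). On the log2 scale line means did not overlap for Tdrd7 alone (log2 -0.20), against 30.9% of all genes. In RPM those of Tdrd7 overlapped, since GSCLC_3 of condition 2 was at 54.4 and GSCLC_1 of condition 1 at 54.3 RPM. The median log2 difference of the 9 genes was -0.28, beside -0.07 over all genes.

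Among the 6 lines, 5 of the 9 genes differed in limma's F test on single libraries, against 20.0% of all tested genes. The adjusted p were 8.60e-06 for Tdrd9, 0.000132 for Mael, 0.00231 for Tdrd5, 0.00536 for Mov10l1 and 0.045 for Piwil2. Tdrd1 (0.0616), Piwil4 (0.0782), Tdrd7 (0.19) and Pld6 (0.733) did not pass. Tdrd9, Mael, Tdrd5 and Mov10l1 passed in all 19 alternative analyses of this test, and Piwil2 in 8 of 19, with adjusted p from 0.00389 to 0.228.

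The lines with the most piRNA pathway genes apart were not always of different kinds. Between GSCLC_3 and GSCLC_2, which share condition 2, 5 of the 9 genes passed, against 5.71% of all genes. All but Tdrd5 (Mael, Mov10l1, Tdrd1 and Tdrd9) were higher in GSCLC_3. GSCLC_4 and GSC_2 also differed in 5 of the 9, against 11.2% of all genes, with Piwil2, Piwil4 and Tdrd5 higher and Mov10l1 and Tdrd9 lower in GSCLC_4. Between GSCLC_1 and GSCLC_4, which share condition 1, none of the 9 passed, against 2.45% of all genes, and none passed between the GSC lines, against 0.0509%. GSCLC_4 and GSCLC_3 differed in 3 (11.4% of all genes), GSCLC_4 and GSC_1 in 3 (10.5%), and GSCLC_2 and GSC_2 in 3 (9.07%). The other pairs gave 2 for GSCLC_2 and GSCLC_1 (1.21%), for GSCLC_2 and GSC_1 (6.47%) and for GSCLC_3 and GSC_1 (8.44%). They gave 1, Tdrd9, for GSCLC_1 with GSC_1 (3.24%) and with GSC_2 (5.35%) and for GSCLC_3 with GSC_2 (10.2%), and 0 for GSCLC_3 with GSCLC_1 (1.37%) and for GSCLC_4 with GSCLC_2 (0.560%).

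**Figure D3:**
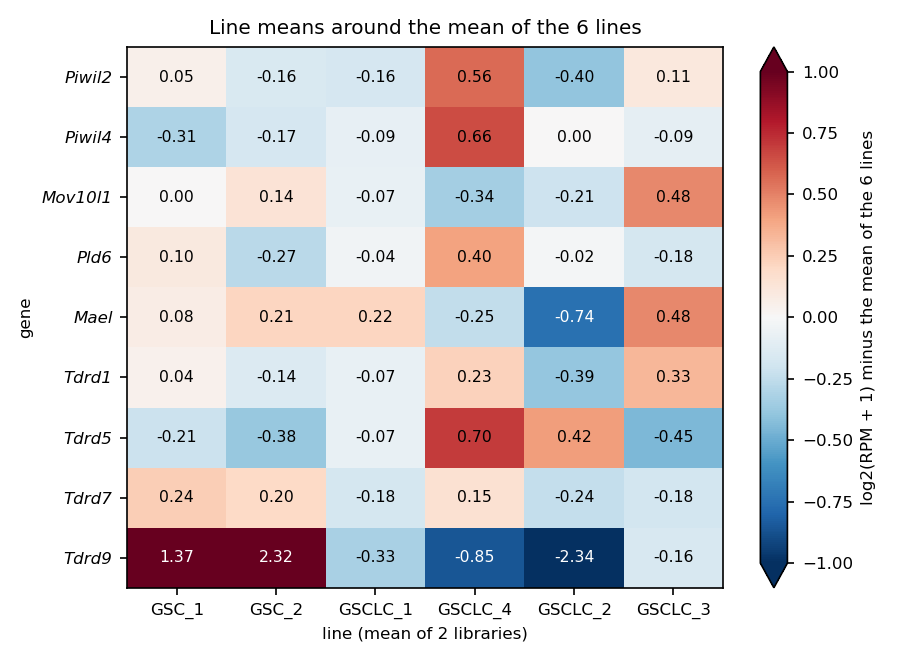
Mean log2(RPM + 1) of each line minus the mean of the 6 lines, for the 9 tested piRNA pathway genes (rows) and 6 lines (columns). Red is above and blue below the mean, with colours saturated at 1 and values printed. Tdrd9 is above its mean in the 2 GSC lines alone (1.37 and 2.32), and GSCLC_2 and GSCLC_3 have opposite signs for Mael (-0.74 and 0.48).

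Tdrd9 was set against the rest of these genes within each library, as its log2 value minus the mean log2 value of the other 8 tested genes. This difference was -1.72 and -2.29 in GSC_1, -0.92 and -1.06 in GSC_2, -3.16 and -4.12 in GSCLC_1, -6.00 and -5.04 in GSCLC_2, -3.93 and -3.27 in GSCLC_3, and -4.31 and -4.69 in GSCLC_4. All 8 GSCLC libraries lie below all 4 GSC libraries, while the mean of the other 8 genes stayed within 6.18 to 6.79 in all 12. The shift between the kinds of line was -2.82 for Tdrd9, from -1.50 to -4.32. For the other 8 genes, each against the remaining 7 with Tdrd9 left out, the same shift was between -0.44 (Tdrd7) and 0.45 (Tdrd5). The SD between the line means of Tdrd9 was 1.65 and that between libraries of a line 0.58 on the log2 scale, beside medians of 0.25 and 0.24 over all tested genes.

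Over the 12 libraries, none of the other piRNA pathway genes measured here followed Tdrd9 as closely as Fkbp6, which encodes a co-chaperone of HSP90 that acts in piRNA biogenesis. Pearson's r of log2 values with Tdrd9 was 0.95 for Fkbp6, the highest of 8243 candidate genes with at least 20 RPM in their highest line, whose 95th percentile was 0.687. These 12 libraries share lines in pairs, and r is a description. The genes named here were picked by this r, so their differences between the kinds of line follow largely from that choice. Fkbp6 had 261 to 305 RPM in the GSC and 167 to 244 RPM in the GSCLC libraries, without overlap, and averaged 290 ± 9.33 and 209 ± 20.6 RPM (log2 -0.48 ± 0.12, adjusted p = 0.0655 in limma). Stretches of 50 bases from the 3′ end of Fkbp6 occur in transcripts of 259 other genes, so its value is uncertain. Next came Gm15127 (r = 0.948), whose 3′ end shares such stretches with 10 other genes, Dpep3 (0.946), Pebp1 (0.939), Tex19.1 (0.935) and Pmaip1 (0.934).

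Dpep3, which encodes a testis dipeptidase, had 4.95 to 24.0 RPM in GSC libraries and 0 to 4.58 RPM in GSCLC libraries, 4 of the 8 being at 0. It fell by 2.99 ± 0.56 on the log2 scale (adjusted p = 0.0173 in limma). Another gene, Gm45752, lies on the opposite strand at its end, and the use of strand in counting is not stated. Tex19.1, a germ cell gene that restrains transposons, went from 115 to 41.4 RPM and fell by 1.54 ± 0.36 (adjusted p = 0.0413), with reads that could belong to its near copy Tex19.2. Pmaip1, which encodes the pro-apoptotic protein NOXA, fell by 0.96 ± 0.23 (adjusted p = 0.0476), from 93.5 to 48.3 RPM. As for Tdrd9, GSCLC_2 gave the lowest line mean of these genes. They were picked for their likeness to Tdrd9, so this order, their falls and the p-values follow largely from that choice. Dpep3 reached the 20 RPM asked of candidates only through GSC_2, at 21.8 RPM. Pebp1, whose 3′ end shares such stretches with 2 other genes, and Gm15127 did not pass (adjusted p = 0.129 and 0.238). Among the 9 genes themselves r with Tdrd9 was 0.679 for Mael and 0.653 for Tdrd7, and ran down to -0.338 for Piwil4 and -0.533 for Tdrd5.

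**Figure D4:**
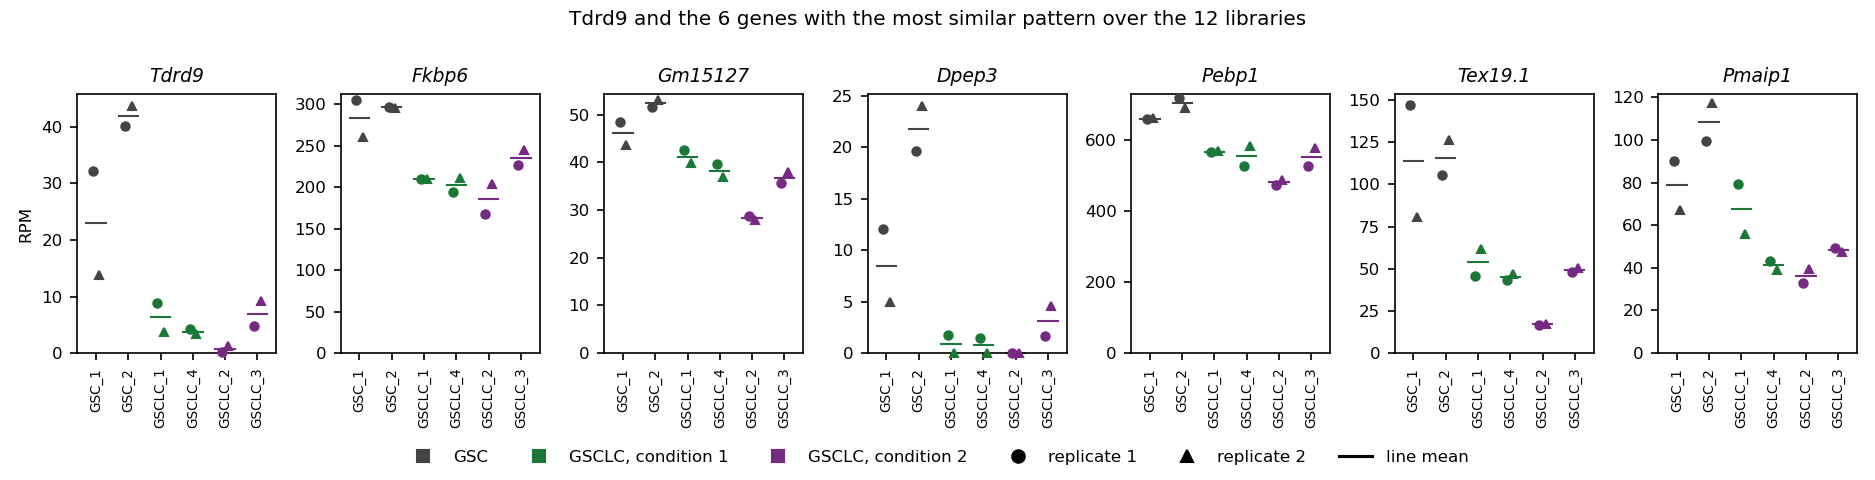
RPM of Tdrd9 and of the 6 genes with the highest Pearson's r with it, in the 12 libraries by line, with symbols as in the plot of RPM by library. Vertical axes start at 0 and differ between panels. In each panel the GSC line means lie above the GSCLC line means and GSCLC_2 is lowest, with Dpep3 listed at 0 in both libraries of GSCLC_2. The 6 genes were chosen for their likeness to Tdrd9, so this shared order follows largely from the choice.

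Tdrd9 (gene identifier 74691) is a protein-coding gene on the plus strand of chromosome 12 at 111971559 to 112068854 (GRCm38, GENCODE M21). Its tested neighbours did not pass the same test. 2010107E04Rik, which starts 10.1 kb before it, had 232 RPM for GSC and 181 RPM for GSCLC lines (log2 -0.37 ± 0.15, adjusted p = 0.24 in limma). Ppp1r13b on the same side had -0.22 ± 0.15 (adjusted p = 0.519). On the other side Kif26a had 0.44 ± 0.42 (adjusted p = 0.644) and Inf2 -0.07 ± 0.25 (adjusted p = 0.923).

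The other piRNA pathway genes lie apart in the genome. Piwil2 (57746) is on chromosome 14 at 70372477 to 70429383, Piwil4 (330890) on 9 at 14696230 to 14740733, Mov10l1 (83456) on 15 at 88982909 to 89055152 and Pld6 (194908) on 11 at 59783897 to 59787645. Mael (98558) and Tdrd5 (214575) are both on chromosome 1, at 166201201 to 166238747 and 156255296 to 156303664. Tdrd1 (83561) is on 19 at 56826209 to 56870012, Tdrd6 (210510) on 17 at 43615335 to 43630299 and Tdrd7 (100121) on 4 at 45965334 to 46034761. In none of the 10 did an exon of another gene overlap the last 500 bases, and no 50 bases of the last 300 of their transcripts occur in another gene's transcripts.

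A further list of 25 piRNA pathway genes was followed beside these 10. It had 23 genes in the table and 21 tested, of which 0 were lower and 0 higher between GSCLC and GSC lines, with a median log2 change of 0.06. Line means of log2 values were separate for 5 of 21, Fkbp6 and Tex15 lower and Asz1, Stk31 and Hsp90aa1 higher, against the 28.6% of all genes. In RPM those of Tdrd12 were separate too, with 48.9 RPM in the higher GSC and 49.2 RPM in the lowest GSCLC line. None passed between the conditions, and 4 of 21 passed among the 6 lines, against the 20.0% of all genes. Ddx4, the germ cell helicase VASA, had 478 ± 78.6 RPM for GSC and 521 ± 34.4 RPM for GSCLC lines. Asz1, a mitochondrial anchor of the nuage, had 159 ± 19.4 and 193 ± 10.7 RPM (log2 0.29 ± 0.12, adjusted p = 0.252 in limma). Gtsf1, a cofactor of PIWI proteins, had 203 ± 5.88 and 201 ± 11.2 RPM, and Tdrkh, which tethers PIWI proteins to mitochondria, 79.3 ± 6.18 and 89.7 ± 10.1 RPM, with Oaz3 on the opposite strand at its 3′ end.

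The 4 genes of that list that differed among lines were Spocd1, Piwil1, Fkbp6 and Tdrd12. Spocd1, which links PIWIL4 to the DNA methylation machinery, was lowest in GSCLC_1 at 2.30 and GSCLC_3 at 5.37 RPM, and stood at 10.5 to 14.8 RPM in the other 4 lines (adjusted p = 0.000644 in limma's F test). Piwil1, which encodes the PIWI protein of meiotic and haploid cells, had 11.9 RPM in GSCLC_4 and 9.82 RPM in GSCLC_2. It had 1.82 RPM in GSCLC_3 and 4.65 to 6.54 RPM in the other 3 lines (adjusted p = 0.00578). GSCLC_4 and GSCLC_2 were thus the highest lines for Piwil1 as for Tdrd5, and GSCLC_3 the lowest. Fkbp6 gave an adjusted p of 0.00641, and Tdrd12, a partner of PIWI proteins in piRNA amplification, 0.0422, with 48.0 ± 1.32 RPM for GSC and 63.6 ± 10.5 RPM for GSCLC lines. Mybl1 reached at most 1.53 RPM and Dnmt3l at most 4.08 RPM in any library and were not tested.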

How the data were processed

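The authors deposited 1 table of RPM for 26219 genes in 12 SC3-seq libraries. The submitters' processing notes name cutadapt 1.3, TopHat 1.4.1, Cufflinks 2.2.0 and mm10 (GRCm38). Not given in the sources used here: roles, parameters, annotation and the use of strand. The 12 columns sum to 999885 to 999962 RPM. Low values lie on steps that give whole reads within 0.1 for 99.7% to 99.8% of values, with 35 to 56 values under 0.1 RPM per library, so implied reads served only for depth and intervals and no count test was run.

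Genes with at least 5 RPM in 2 libraries (11788) were tested on log2(RPM + 1) with limma 3.58.1 in R 4.3.3, with a mean-variance trend, two-sided, adjusted by Benjamini-Hochberg over all of them at 0.05. The 2 libraries of a line were averaged for the comparisons of kinds and conditions, so the line is the unit, and single libraries were used for the F test and the pairs of lines. P-values of the latter measure the spread between cultures of a line.

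The genes, the further lists and the markers were chosen with earlier results of these data known. The genes named are the 10, of the further list those past a threshold (at most 6) and 6 given in every case, the 6 most like Tdrd9 and the 2 tested neighbours on each side of it. Tex15, Stk31 and Hsp90aa1 are also named for separate line means, and Mybl1 and Dnmt3l as untested, chosen after their values were seen. Alternatives were other pseudocounts (0.5 and 5), filters, scalings, a replicate block, 1 replicate per line, and leaving out a library or a line. A fit with the line as a random effect and without the replicate number was chosen after seeing the data. The script was tested on simulated data. Figures used matplotlib 3.10.9.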

Additional observations from a re-analysis of the deposited data

Results flagged for a closer look

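The line mean of Piwil4, the gene of the nuclear PIWI protein, was 52.1 RPM in GSCLC_4, and the nearest of the other 3 GSCLC lines was at 32.8 RPM. The gap took 0.884 of the range of the 4 lines, above the 95% critical value of Dixon's test. Tdrd7, the chromatoid body gene, had 68.3 RPM in GSCLC_4 and 54.4 RPM in the nearest GSCLC line, a gap of 0.849 of the range, also above that value. In both cases GSCLC_4 was the high line, and both of its libraries were above those of the other 3 GSCLC lines. Chance gives such gaps in about 1 in 20 groups, and 10 genes were looked at.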

How the results depend on the processing

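Tdrd9 was lower in GSCLC lines in all 28 alternatives, with log2 differences from -3.24 to -1.97 and limma adjusted p from 0.00155 to 0.311, and past the threshold in 25. The count of the 9 genes called between the kinds of line went from 1 to 0 without the low-level filter, without GSC_1 and without GSC_2. The count of all genes called went from 356 to 142 without a filter and 212 with one at 20 RPM. It was 592 with a replicate block, 645 with the line as a random effect and no replicate number (an alternative chosen after seeing the data), 105 from replicate 1 and 179 from replicate 2 alone. Without a line it was 42 (GSC_1), 12 (GSC_2), 212 (GSCLC_1), 218 (GSCLC_2) and 536 (GSCLC_3), and without 1 library 200 to 403. Differences between replicates 1 and 2 correlated between lines with r of -0.122 to 0.11 over the 15 pairs of lines, over 0.1 in 2 pairs. Over all tested genes the replicate numbers thus showed little pairing, which does not exclude it in some genes. The Leydig and peritubular sum was higher in replicate 1 of both GSC lines (92.6 against 36.8 and 134 against 33.4 RPM). The replicate block changed no call among the 9 genes. Between conditions 0 genes became 1 from replicate 2 alone, 1 without GSCLC_1, 11 without GSCLC_2 and 1 without GSCLC_3, and among lines 2362 became 1181 without a filter. The number of the 9 genes called among lines ranged from 4 to 7. Other signs turned in differences that did not pass in either analysis. For the kinds of line these were Mael (0.01 without GSCLC_2), Piwil2 (-0.02 without GSC_2, -0.10 without GSCLC_4), Pld6 (-0.15 from replicate 1, -0.06 without GSC_2) and Tdrd1 (-0.04 from replicate 1, -0.02 without GSC_2, -0.03 without GSCLC_3). Leaving out 1 library gave -0.16 to 0.32 for Piwil2, -0.05 to 0.30 for Pld6 and -0.12 to 0.26 for Tdrd1. For the conditions they were Mael (0.01 from replicate 2, 0.12 without GSCLC_1, 0.50 without GSCLC_2), Piwil2 (0.02) and Piwil4 (0.04) without GSCLC_4, Tdrd1 (0.25 without GSCLC_2, 0.04 without GSCLC_4), Tdrd5 (0.10 without GSCLC_3, 0.05 without GSCLC_4) and Tdrd9 (0.09 from replicate 2, 0.43 without GSCLC_2). The median change of all genes was -0.01, -0.01 and 0.01 under the 3 scalings. The cause of these changes was not tested. Depth limits Tdrd6, and Tdrd9 in GSCLC_2.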
